A study of Mus musculus with 6 samples.

Results

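Integrin and laminin chains were followed in mouse tibialis anterior (TA) muscle as 37 of the 26431 genes in the table: every gene with the symbol of an integrin α chain (18 genes), an integrin β chain (8), or a laminin α (5), β (3) or γ (3) chain. Membership follows from the symbol, and the levels do not enter the rule. A gene listed with more than 1 RefSeq transcript was represented by the one whose mean over all libraries was highest. Bulk RNA was sequenced from the TA muscle of 3 uninjured, untreated C57BL/6 mice and of 3 C57BL/6 mice on day 3 after cardiotoxin (CTX) was put into the same muscle. The animals, labelled female, were 8 to 10 weeks old, carried no named allele, and gave 1 library each. CTX, here from Naja mossambica mossambica and given as 50 μl of a 10 μM solution, is a snake toxin that kills the fibres of a muscle, which then rebuilds them. The uninjured mice are labelled untreated and not as injected with saline, so the injection itself and the toxin cannot be told apart.

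Integrins are receptors of 1 α and 1 β chain that span the plasma membrane and tie the cytoskeleton to the matrix or to other cells. Laminins are trimers of an α, a β and a γ chain and form the sheet of the basement membrane that surrounds every muscle fibre, nerve and capillary. In adult muscle, integrin α7β1 and dystroglycan hold the fibre to the laminin that contains the α2 chain, and loss of α7 or of laminin α2 causes muscle disease in mice and people. Integrins that contain β2 are found on leukocytes, where they serve adhesion to vessel walls and phagocytosis.

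The promoters of 4 chains are printed first, because the results turn on them: Itgam and Itgax, the integrin α chains with the steepest rise, and Lamb1 and Lamb2, the laminin β chains whose order turned over. Each window runs from 250 bases before to 50 after the RefSeq transcription start (GRCm38.p6, plus strand, 5′ to 3′). Capitals mark 3 motifs sought on both strands: GAGGAA, which reads as TTCCTC from the other strand and is the core letters for the myeloid factor PU.1, then CAGCTG, an E-box of the kind that MyoD family factors read, and GGGCGG, which reads as CCGCCC from the other strand and is the GC box of Sp1. No 2 marked motifs overlap.
Itgam, chr7:128062390-128062689: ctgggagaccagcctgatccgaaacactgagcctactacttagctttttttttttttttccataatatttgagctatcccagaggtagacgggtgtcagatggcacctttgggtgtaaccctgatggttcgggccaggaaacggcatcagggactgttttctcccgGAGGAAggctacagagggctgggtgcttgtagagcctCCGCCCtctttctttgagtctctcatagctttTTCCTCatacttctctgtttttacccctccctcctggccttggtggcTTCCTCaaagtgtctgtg
Itgax, chr7:128129300-128129599: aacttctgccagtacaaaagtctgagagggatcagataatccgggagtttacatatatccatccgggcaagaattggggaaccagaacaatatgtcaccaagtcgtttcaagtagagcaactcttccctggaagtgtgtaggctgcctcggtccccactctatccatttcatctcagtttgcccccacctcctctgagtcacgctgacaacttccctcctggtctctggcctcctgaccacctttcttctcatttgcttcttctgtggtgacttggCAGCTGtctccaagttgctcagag
Lamb1, chr12:31265043-31265342: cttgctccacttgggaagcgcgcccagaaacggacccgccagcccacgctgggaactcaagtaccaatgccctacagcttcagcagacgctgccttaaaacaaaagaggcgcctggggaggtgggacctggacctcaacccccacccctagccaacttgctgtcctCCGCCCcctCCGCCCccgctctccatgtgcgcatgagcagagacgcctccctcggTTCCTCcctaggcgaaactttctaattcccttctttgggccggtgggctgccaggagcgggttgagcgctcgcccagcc
Lamb2, chr9:108479612-108479911: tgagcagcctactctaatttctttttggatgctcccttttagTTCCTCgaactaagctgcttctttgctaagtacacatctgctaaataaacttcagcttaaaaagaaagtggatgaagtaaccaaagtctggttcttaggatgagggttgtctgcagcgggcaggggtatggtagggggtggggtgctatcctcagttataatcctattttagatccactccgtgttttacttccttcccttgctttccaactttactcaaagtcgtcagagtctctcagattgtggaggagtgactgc
The Itgam window held the PU.1 core at positions -84, -15 and 33 from the start and a GC box at -47, whereas the Itgax window held the E-box at 27 and neither of the other motifs. The starts of these windows lie 66.9 kb apart on chromosome 7, where RefSeq lists Itgam, Itgax and Itgad in a row with nothing but pseudogenes between them. The Lamb1 window held GC boxes at -84 and -75 and the PU.1 core at -29, and was 63.7% G or C with 18 CpG. The Lamb2 window held the PU.1 core at -208 and no GC box, and was 44.0% G or C with 4 CpG. Over the 26 windows that RefSeq gives for 23 of the 37 chains, 14 (53.8%) held the PU.1 core, 8 (30.8%) the E-box and 12 (46.2%) the GC box, and over all 32851 windows of this length the shares were 28.3%, 16.3% and 35.7%. A match is a description of these letters and not a binding site.

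Levels are given as RPKM, reads corrected for transcript length and library depth, which allows levels of different chains to be set side by side. The libraries held 34202861 to 43062684 mapped reads, so that 1 read in a transcript of 1 kb was worth 0.0232 to 0.0292 RPKM, and the lowest value listed was 0.01. Genes with a mean of at least 0.5 RPKM over the 6 libraries (14446 genes) entered 1 limma fit on log2(RPKM + 0.1). A call required a p under 0.05 after Benjamini-Hochberg adjustment together with a 2-fold or larger change in the fit (1 on the log2 scale). The pseudocount of 0.1 makes fold changes of low genes smaller than they are. The whole table was shifted: the median log2 fold change over all tested genes was 1.35, so each change below has to be read against that value. Per-library scaling sets this shift, and the median was 0.94 after scaling to ERCC spike-ins, 0.064 with median-of-ratios scaling, -0.074 with quantile normalisation and -0.72 after scaling to ribosomal protein genes. The markers of adult fibres checked the tissue and its injury: their summed level was 40980 to 44328 RPKM in uninjured libraries and 1904 to 7983 at day 3, and 8 of 8 were called lower. Day 3 replicate 3 stood apart in them, with the 1904, and the 8 markers lay at a median of -1.92 (log2) against the mean of the other day 3 libraries.

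Of the 37 chains, 30 passed the filter on low values, and 24 of these were called higher at day 3, 0 lower and 6 neither. Of all 14446 tested genes, 60.5% were called higher and 7.96% lower, so a rise by itself is common here. Among the 30, 29 had an unadjusted limma p under 0.05 with a positive difference and 1, Lamb2, with a negative one. The voom fit on the recovered reads also called 24 higher and 0 lower. The median log2 fold change of the 30 was 1.98 against 1.35 over all tested genes, and 24 of the 30 lay above the latter. The other scalings but quantile normalisation multiply each library by 1 factor, which moves all genes nearly alike. Their count of 24 of 30 above the median of all genes was thus all but fixed in advance. With quantile normalisation 22 of 30 lay above it. The number called higher was 24 with spike-ins, 11 with median-of-ratios scaling, 13 with quantile normalisation and 7 with ribosomal protein genes, and the number called lower was 1, 1, 3 and 6. Over all tested genes, 48.1%, 26.3%, 24.0% and 16.01% were called higher under these scalings and 11.1%, 22.5%, 24.7% and 41.5% lower. Itga5, Itgal, Itgam, Itgax, Itgb2, Itgb3 and Itgb7 were called higher under all 5 scalings, and each of the other 17 calls was lost under 1 or more of them, in all cases with ribosomal scaling. Of the 30, 9 passed the filter through their day 3 values alone, with an uninjured mean under 0.5, among them Itga8, Itga2b, Itgal, Itgam, Itgax, Itgb3, Itgb7 and Lamb3. In the fit without a filter, 27 of 37 were called higher and 0 lower, against 38.3% and 4.64% of all 26431 genes. Without the filter, Itga2, Itgad and Itgb8 were added. In 35 chains all day 3 libraries lay above all uninjured ones (55.2% of all genes), in 1, Lamb2, below (9.32% of all genes), and in 1, Itga1, the groups overlapped. Without day 3 replicate 3, 25 of 30 were called higher, Itga10 being the addition.

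**Figure D1:**
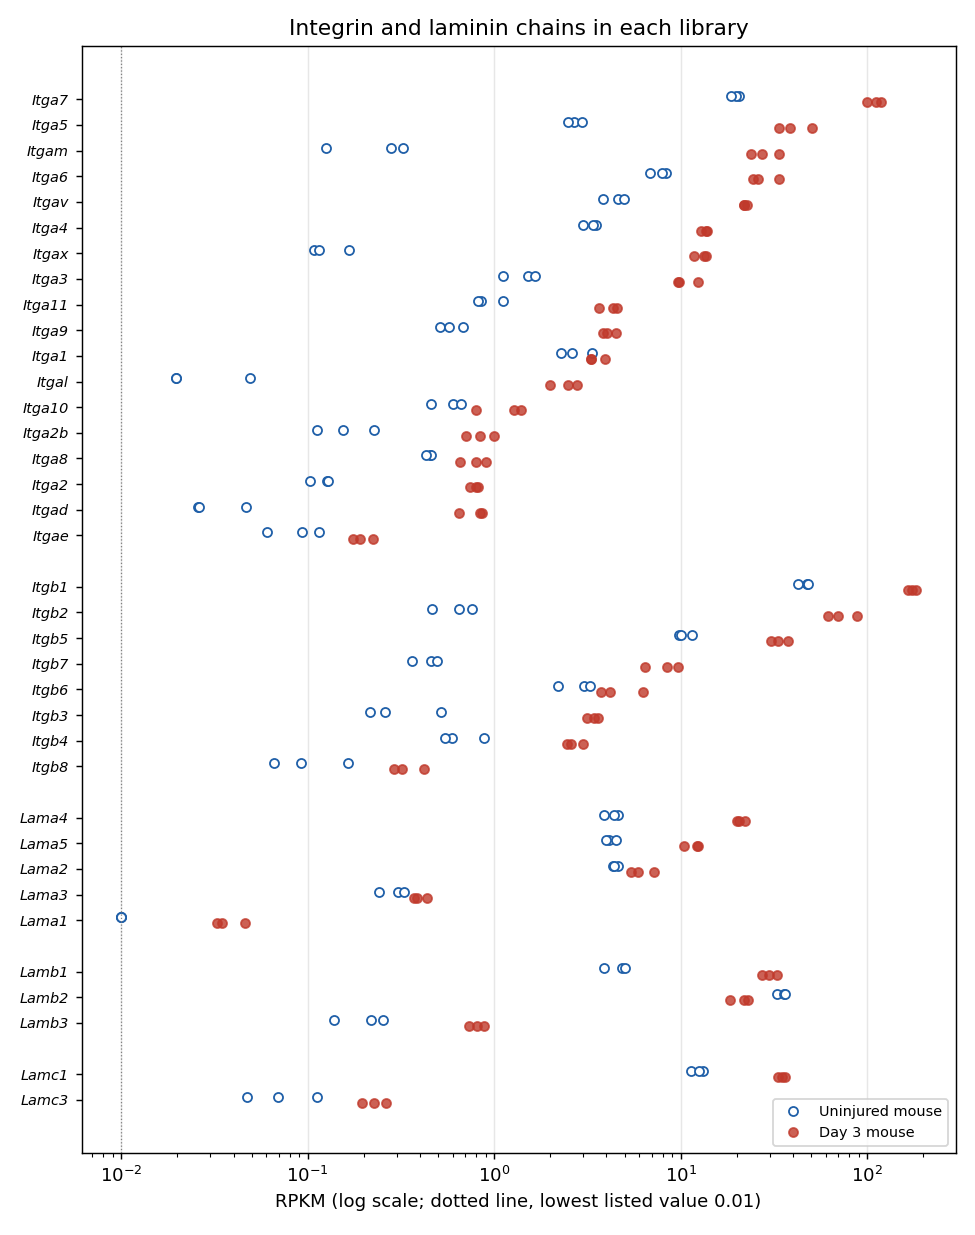
Level of 36 of the 37 integrin and laminin chains in every library, in RPKM on a log axis, with the 3 uninjured and the 3 day 3 libraries as separate points. Itgb1 was the most abundant chain in both groups (42.5 to 48.1 and 165 to 182 RPKM), and Lamb2 is the chain whose day 3 points (18.5 to 22.9) all lie below its uninjured points (32.9 to 36.2).

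Among the tested collagen-binding α chains, Itga11 was called higher as deposited and with spike-ins, but not with median-of-ratios scaling (log2 fold change 0.80), quantile normalisation (0.40) or ribosomal scaling (0.026). Itga11, the α11 chain that fibroblasts use to bind fibrillar collagen, measured 0.847, 0.818 and 1.11 RPKM in uninjured replicates 1, 2 and 3 and 4.54, 3.63 and 4.32 RPKM at day 3. The log2 fold change of Itga11 was 2.06 ± 0.14 (SE, n = 3 per group, limma adjusted p = 4.76e-06). Itga1, the α1 chain of a collagen IV receptor, measured 3.33, 2.27 and 2.62 RPKM and then 3.93, 3.32 and 3.31 RPKM, and its groups overlapped. The log2 difference of 0.36 had a 95% interval of 0.0077 to 0.72 (limma adjusted p = 0.0504), which lies below the median of all genes, and the sign was negative under the other 4 scalings. Itga10, the α10 chain known from cartilage, measured 0.460, 0.598 and 0.665 RPKM uninjured and 1.39, 1.28 and 0.801 RPKM at day 3. Its log2 difference was 0.87 (95% interval 0.34 to 1.41, limma adjusted p = 0.00699) and 1.10 (limma adjusted p = 8.25e-04) without day 3 replicate 3, its lowest day 3 library. With median-of-ratios scaling, quantile normalisation and ribosomal scaling the difference was -0.31, -0.99 and -1.03. Itga2, the α2 chain of the platelet and epithelial collagen receptor, was below the filter, with 0.103 to 0.128 RPKM uninjured and 0.741 to 0.817 at day 3. Fibroblast markers moved beside these chains, 7 of 8 being called higher with a summed level of 235 to 371 RPKM uninjured and 2363 to 2611 at day 3, and their part in the values was not tested. In bulk RNA, more cells of a type and more RNA per cell cannot be told apart, here or in any result that follows.

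All 4 chains of the laminin receptors were called higher at day 3 as deposited, where 60.5% of all tested genes were. None of them was called with ribosomal scaling, where Itga6 and Itgb4 turned negative and 16.01% of all tested genes were called higher. Itga7, the muscle α7 chain, measured 20.4, 19.7 and 18.6 RPKM in uninjured muscle and 119, 99.3 and 112 RPKM at day 3. By the transcript used for each gene, it was the third most abundant chain in uninjured muscle and rose to rank 2. Its log2 fold change was 2.48 ± 0.084 (SE, limma adjusted p = 1.82e-07). Over the same days the adult fibre markers were lower as given above, while 8 of 8 markers of myoblasts and new fibres were called higher, with a summed level of 61.5 to 69.1 RPKM uninjured and 824 to 1301 at day 3. Whether these cells carried the Itga7 RNA was not tested. Itga6, the α6 chain of laminin receptors on endothelium, myoblasts and epithelium, measured 8.32, 6.88 and 7.98 RPKM and then 24.3, 26.1 and 33.5 RPKM. The log2 fold change of 1.83 ± 0.13 (SE, limma adjusted p = 6.33e-06) lay 0.48 above the median of all genes and turned to -0.30 with ribosomal scaling. Itga3, the α3 chain of epithelial laminin receptors, measured 1.52, 1.12 and 1.65 RPKM uninjured and 9.68, 9.82 and 12.4 RPKM at day 3, a log2 fold change of 2.82 ± 0.16 (SE, limma adjusted p = 1.76e-06). Itgb4, the β4 chain that pairs with α6 in hemidesmosomes and in Schwann cells, measured 0.596, 0.880 and 0.545 RPKM and then 2.57, 2.45 and 2.99 RPKM. As deposited, the log2 fold change was 1.86 ± 0.18 (SE, limma adjusted p = 3.04e-05), and it was -0.13 with ribosomal scaling. Of the 6 epithelial markers, only the keratin genes Krt8 and Krt18 passed the filter, and both were called higher. Krt14 was at 0.01 in all 6 libraries, and Krt5, Epcam and Cdh1 had means of 0.0111, 0.124 and 0.271 RPKM at day 3. Of the Schwann cell markers, 2 of 6 were called higher. The part of these cells in Itga3 and Itgb4 was not tested.

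Of the 4 α chains that bind the RGD motif of fibronectin and related ligands, 3 were called higher as deposited. Over all tested genes 60.5% were. With spike-ins 3 were called higher, with quantile normalisation 2, and with median-of-ratios and ribosomal scaling 1 each. The shares of all tested genes were then 48.1%, 24.0%, 26.3% and 16.01%. Itga5, the α5 chain of the fibronectin receptor, measured 2.69, 2.50 and 2.95 RPKM in uninjured muscle and 38.7, 33.7 and 50.8 RPKM at day 3. By the transcript used for each gene, it moved from rank 15 to rank 4 of the 37 chains. With transcripts summed, Itgb5 (65.0 RPKM) and Itgam (56.2 RPKM) stood above Itga5 (41.1 RPKM) in the day 3 mean. The log2 fold change of Itga5 was 3.85 ± 0.15 (SE, limma adjusted p = 3.09e-07), and it was called higher under all 5 scalings. Itga5 had the largest log2 fold change of any chain not expressed mainly by leukocytes. Itgav, the αv chain that pairs with several β chains, measured 4.61, 3.83 and 4.96 RPKM and then 21.8, 22.6 and 21.8 RPKM, a log2 fold change of 2.29 ± 0.10 (SE, limma adjusted p = 4.72e-07). Its day 3 libraries spanned less than 1 RPKM. Itga8, an α8 chain of mesenchymal and smooth muscle cells, measured 0.454, 0.460 and 0.433 RPKM uninjured and 0.905, 0.794 and 0.656 RPKM at day 3. Its groups did not overlap, but the log2 difference of 0.68 (95% interval 0.33 to 1.03, limma adjusted p = 0.00293) was under that of most genes and turned negative with 3 of the 4 other scalings. Itga2b, the αIIb chain of platelets and megakaryocytes, measured 0.155, 0.112 and 0.225 RPKM and then 0.706, 1.0 and 0.838 RPKM. This log2 fold change of 1.85 ± 0.21 (SE, limma adjusted p = 8.41e-05) rested on 68 reads in uninjured and 309 in day 3 libraries, was 0.66 with a pseudocount of 1, where it was no longer called, and was -0.32 with quantile normalisation.

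Itga4 and Itga9, close relatives that bind VCAM-1 and osteopontin, were both called higher as deposited and with spike-ins. Of all tested genes, 60.5% and 48.1% were called higher in these fits. With median-of-ratios scaling, quantile normalisation and ribosomal scaling, Itga4 was not called (log2 fold change 0.67, 0.65 and -0.13), and Itga9 was not called with the last 2 (0.93 and 0.63). Itga4, the α4 chain of lymphocytes and monocytes, measured 3.54, 2.99 and 3.41 RPKM uninjured and 12.8, 13.9 and 13.6 RPKM at day 3. Its log2 fold change of 1.99 ± 0.084 (SE, limma adjusted p = 4.05e-07) was the smallest among the tested leukocyte chains. Itga9 measured 0.677, 0.511 and 0.572 RPKM and then 3.83, 4.03 and 4.51 RPKM, with a log2 fold change of 2.63 ± 0.12 (SE, limma adjusted p = 6.71e-07).

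The α chains that pair with β2 (Itgam, Itgax, Itgal and Itgad) were under 0.5 RPKM in every uninjured library. All 4 were called higher in the fit without a filter, where 38.3% of all genes were. Their log2 fold changes ran from 2.72 (Itgad) to 6.41 (Itgam). Itgam, the αM chain of the complement receptor on macrophages and neutrophils (CD11b), measured 0.322, 0.126 and 0.281 RPKM in uninjured muscle and 23.8, 27.2 and 33.8 RPKM at day 3. The log2 fold change was 6.41 ± 0.25 (SE, limma adjusted p = 2.99e-07), and by the transcript used the chain moved from rank 26 to rank 8. Summed over its 2 transcripts, Itgam stood at 56.2 ± 10.8 RPKM (SD, n = 3) at day 3. Itgax, the αX chain of dendritic cells and macrophages (CD11c), measured 0.167, 0.108 and 0.115 RPKM and then 13.8, 11.8 and 13.4 RPKM, a log2 fold change of 5.83 ± 0.13 (SE, limma adjusted p = 8.50e-08). Itgal, the αL chain of LFA-1 (CD11a), measured 0.0489, 0.0196 and 0.0198 RPKM and then 2.47, 1.99 and 2.79 RPKM. On the transcript used, out of 4 listed that each hold reads, there were 19 reads in all uninjured and 1337 in all day 3 libraries. The resulting log2 fold change was 4.28 ± 0.18 (SE, limma adjusted p = 3.89e-07). Itgad, the αD chain of some tissue macrophages, stayed below the filter with 0.0257 to 0.0467 RPKM (16 reads) uninjured and 0.647 to 0.856 RPKM (329 reads) at day 3. Itgae, the αE chain of intraepithelial lymphocytes (CD103) and a partner of β7, was also below the filter, with 0.0606 to 0.115 RPKM uninjured and 0.175 to 0.224 RPKM at day 3, and was not called in the fit without a filter (log2 difference 0.65, 95% interval 0.31 to 1.0, limma adjusted p = 0.00954).

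The shared β2 chain changed with its α partners. Itgb2 (CD18) measured 0.763, 0.465 and 0.649 RPKM in uninjured muscle and 61.6, 69.5 and 88.2 RPKM at day 3, with day 3 replicate 3 highest. At 6.66 ± 0.19 (SE, limma adjusted p = 1.22e-07), the log2 fold change was the largest of the 30. By the transcript used for each gene, Itgb2 moved from rank 19 to rank 3. The ratio of Itgam to Itgb2 RPKM was 0.375 ± 0.0911 (SD, n = 3) in uninjured and 0.388 ± 0.00408 in day 3 libraries (two-sided exact permutation p = 1). The ratio of Itgax to Itgb2 was 0.210 ± 0.0286 and 0.182 ± 0.0371 (exact permutation p = 0.3), and that of Itgal to Itgb2 0.0456 ± 0.0171 and 0.0335 ± 0.00599 (exact permutation p = 0.3). The reads of Itgam and Itgal are divided among several transcripts, so the size of their ratios depends on the transcript rule. With transcripts summed, the ratio to Itgb2 was 0.756 ± 0.0849 and 0.769 ± 0.00890 for Itgam. For Itgal it was then 0.181 ± 0.0682 and 0.128 ± 0.0235. These ratios, unlike the levels, thus differed by less than the spread between libraries. Uninjured ratios rest on few reads (139 on the transcript used for Itgam, 218 for Itgb2). Itgb7, the β7 chain of gut-homing lymphocytes and some myeloid cells, measured 0.459, 0.362 and 0.491 RPKM and then 6.40, 8.40 and 9.64 RPKM, a log2 fold change of 3.93 ± 0.17 (SE, limma adjusted p = 4.74e-07). Its α4 partner rose less, so the ratio of Itga4 to Itgb7 went from 7.63 ± 0.659 to 1.69 ± 0.294 (SD, n = 3, exact permutation p = 0.1, the smallest that 3 against 3 can give).

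Leukocyte markers moved in the same libraries. All 13 macrophage and monocyte markers in the table were called higher, and their summed level was 33.8 to 50.2 RPKM in uninjured and 4714 to 6531 in day 3 libraries. The 10 neutrophil markers summed to 3.13 to 7.85 and 18.3 to 46.0 RPKM, with 4 of 4 tested called higher and Ly6g at 0.01 throughout. Without a filter 6 of these 10 were not called, and their median log2 fold change was 0.36. The 9 markers of T and NK cells summed to 0.718 to 0.910 and 7.73 to 12.1 RPKM (4 of 4 tested called higher), and the 6 of dendritic cells to 1.57 to 2.10 and 11.9 to 12.5 RPKM (4 of 5 tested called higher). In day 3 replicate 3, which had the lowest adult fibre markers, the 6 tested leukocyte chains lay above the mean of the other day 3 libraries in 6 of 6 cases, by a median of 0.35 (log2), and the macrophage markers in 13 of 13, by 0.31. The median over all tested genes was 0.056. The part of leukocyte number in the rise of these chains was not tested. Of the 6 tested leukocyte chains, all but Itga4 were called higher under all 5 scalings.

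**Figure D2:**
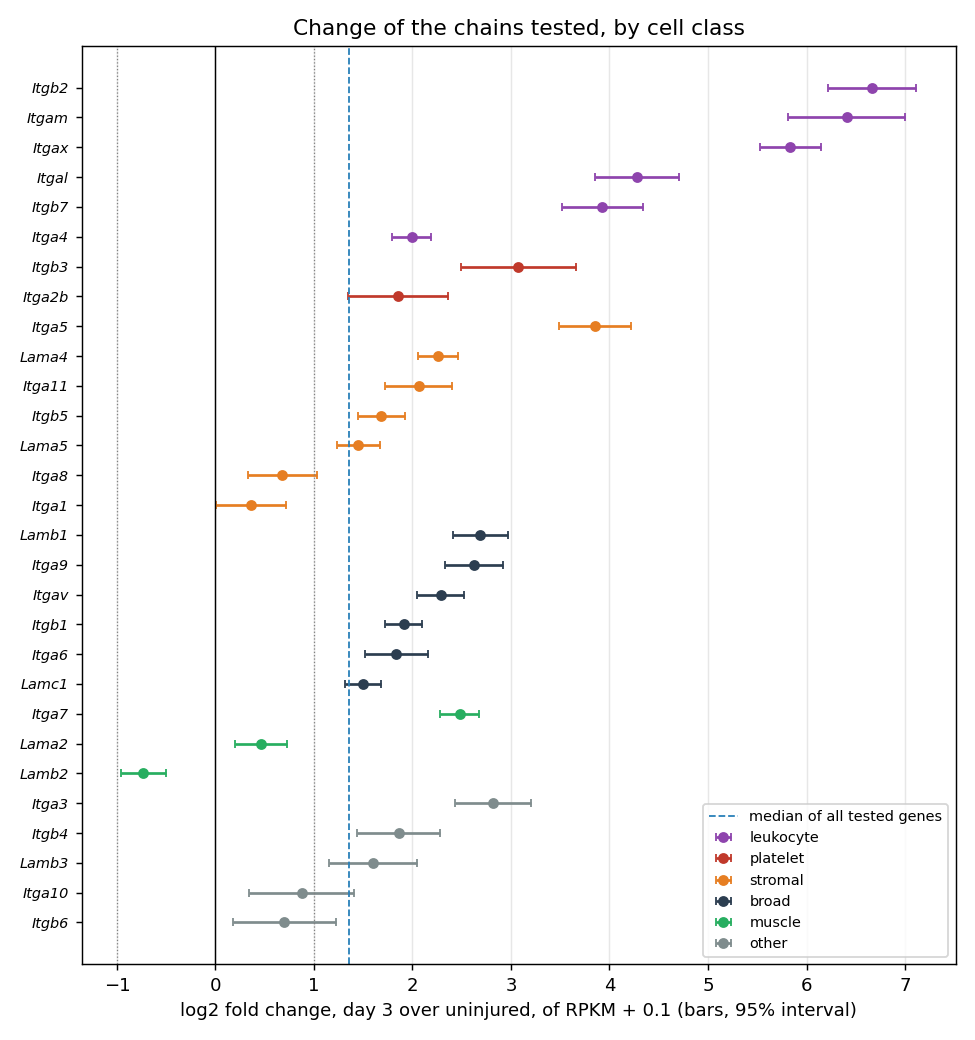
Log2 fold change, day 3 over uninjured, of 29 of the 30 chains that passed the filter, with 95% intervals from limma (n = 3 per group) and colours for the cell class of each chain, while a dashed line marks the median of all tested genes (1.35) and dotted lines the minimum for a call (-1 and 1). The leukocyte chains Itgb2 (6.66), Itgam (6.41) and Itgax (5.83) stand at the top, and Lamb2 (-0.73) alone lies below 0.

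Among the other β chains, Itgb1, the partner of most α chains in muscle, was the most abundant of all 37 in every group. It measured 47.7, 42.5 and 48.1 RPKM in uninjured muscle and 182, 165 and 173 RPKM at day 3. The log2 fold change was 1.91 ± 0.078 (SE, limma adjusted p = 3.46e-07) as deposited and -0.24 with ribosomal scaling. The partners of αv differed among themselves. Itgb3, the β3 chain of platelets, osteoclasts and endothelium, measured 0.261, 0.217 and 0.518 RPKM and then 3.15, 3.42 and 3.61 RPKM, a log2 fold change of 3.08 ± 0.25 (SE, limma adjusted p = 1.08e-05), and was called higher under all 5 scalings. Itgb5, the β5 chain of the vitronectin receptor, measured 9.77, 11.4 and 10.1 RPKM and then 30.3, 33.3 and 37.8 RPKM. Its log2 fold change of 1.69 ± 0.10 (SE, limma adjusted p = 2.27e-06) became -0.45 with ribosomal scaling. Itgb6, the β6 chain of epithelia that activates TGF-β, measured 3.05, 2.20 and 3.27 RPKM and then 6.25, 4.19 and 3.74 RPKM. It was not called, with a log2 difference of 0.70 (95% interval 0.18 to 1.23, limma adjusted p = 0.0179), and its day 3 libraries differed more than its uninjured ones. Itgb8, the β8 chain that also activates TGF-β, stayed below the filter, with 0.0661 to 0.165 RPKM uninjured and 0.291 to 0.420 at day 3. Beside the platelet chains Itga2b and Itgb3, the 8 platelet and megakaryocyte markers summed to 3.52 to 5.41 RPKM uninjured and 176.5 to 285 at day 3, mostly Pf4. Of the 4 tested, 3 were called higher and Gp1ba lower, and Gp6 was at 0.01 in all uninjured libraries. Their part was not tested.

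Shares within a chain family do not change when a whole library is multiplied by 1 factor, as in all scalings used here but quantile normalisation, under which no share was computed. Itgb1 held 74.9% ± 1.54 (SD, n = 3) of the summed RPKM of the 8 β chains in uninjured and 58.0% ± 4.03 in day 3 libraries, and Itgb2 1.01% ± 0.209 and 24.3% ± 3.27 (exact permutation p = 0.1 for each, the smallest possible). Without day 3 replicate 3 the Itgb2 share differed by 21.6 percentage points in place of 23.3. With the transcripts of each gene summed, Itgb1 held 61.7% ± 1.98 and 51.4% ± 3.61, and Itgb2 0.834% ± 0.180 and 21.5% ± 2.89. Among the 18 α chains, Itga7 held the largest share in both groups, 43.3% ± 3.05 and 38.6% ± 3.09, which overlapped (exact permutation p = 0.2). Where the transcripts of each gene were summed, its share was 42.5% ± 3.0 and 34.1% ± 3.16, without overlap (exact permutation p = 0.1), because genes with several transcripts, such as Itgam and Itgal, then weigh more. Itga6 went from 17.0% ± 0.655 to 9.79% ± 1.12, Itga1 from 6.01% ± 0.832 to 1.24% ± 0.161, Itga5 from 5.99% ± 0.413 to 14.3% ± 1.86, and Itgam from 0.528% ± 0.202 to 9.90% ± 1.32 (exact permutation p = 0.1 for each). With transcripts summed, Itga5 went from 5.88% ± 0.409 to 12.6% ± 1.54, and Itgam from 1.03% ± 0.281 to 17.3% ± 2.28. On that reading Itgam stood above Itga5 at day 3. The ratio of Itga7 to Itgb1 RPKM was 0.426 ± 0.0385 and 0.633 ± 0.0276, and that of Itga5 to Itgb1 0.0588 ± 0.00242 and 0.237 ± 0.0493 (exact permutation p = 0.1 for each). The summed α level was 0.736 ± 0.0235 of the summed β level in uninjured muscle and 0.951 ± 0.0309 at day 3 (exact permutation p = 0.1). With transcripts summed it was 0.618 ± 0.0234 and 0.956 ± 0.0330.

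Of the laminin α chains, Lama4 and Lama5 were called higher as deposited and Lama2 was not, and Lama5 turned negative (-0.67) with ribosomal scaling. The call of Lama4 was lost with median-of-ratios scaling (log2 fold change 0.93) and ribosomal scaling (0.13). Lama2, the chain of the laminin of the adult fibre, measured 4.33, 4.59 and 4.40 RPKM in uninjured muscle and 7.23, 5.93 and 5.43 RPKM at day 3, so its groups did not overlap. The log2 difference was 0.46 (95% interval 0.20 to 0.73, limma adjusted p = 0.00533), short of the shift of all genes, and negative with 3 of the 4 other scalings. Lama4, a chain of vessel, nerve and embryonic muscle laminins, measured 4.64, 3.88 and 4.38 RPKM and then 20.6, 20.0 and 22.1 RPKM, a log2 fold change of 2.26 ± 0.086 (SE, limma adjusted p = 2.67e-07). Lama5, a chain of vessel, synaptic and embryonic laminins, measured 4.12, 4.48 and 3.99 RPKM and then 12.3, 10.4 and 12.2 RPKM. The log2 fold change of Lama5, 1.45 ± 0.092 (SE, limma adjusted p = 2.89e-06), lay 0.096 above the median of all genes. The 3 chains were thus at like levels in uninjured muscle, at 33.5% ± 1.13, 32.5% ± 2.88 and 31.7% ± 1.75 of the summed laminin α RPKM for Lama2, Lama4 and Lama5. At day 3 the shares were 15.8% ± 2.17, 53.4% ± 2.30 and 29.7% ± 1.21 (SD, n = 3, exact permutation p = 0.1 for each). The ratio of Lama4 to Lama2 went from 0.971 ± 0.115 to 3.43 ± 0.612 (exact permutation p = 0.1), and was highest, at 4.07, in day 3 replicate 3. Lama3, a chain of epithelial laminins, had 0.242 to 0.326 RPKM uninjured and 0.370 to 0.436 at day 3. Lama1, an early embryonic chain, was listed at the lowest value of 0.01 in all uninjured libraries and at 0.0325 to 0.0461 RPKM at day 3. Since its transcript has 9518 bases, up to 3 or 4 reads could be listed at 0.01.

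Beside the vessel laminins, endothelial markers summed to 85.2 to 97.5 RPKM uninjured and 108 to 113 at day 3. Of these 8, 0 were called by limma and 0 by voom (6 higher and 1 lower at an unadjusted p under 0.05), and 8 were called lower with ribosomal scaling, where 41.5% of all tested genes were. Of the 8 markers of pericytes and smooth muscle, 4 were called higher and 4 neither, while 60.5% of all tested genes were called higher. Their median log2 fold change was 1.10 against 1.35 over all tested genes, and Rgs5 (-0.88) and Myh11 (-0.81) were negative. Their summed level was 129.9 to 132 and 209 to 318 RPKM, of which Acta2 made 17.1 ± 0.845 and 148 ± 48.1 RPKM (SD, n = 3). The part of endothelial cells, pericytes and smooth muscle in the level of Lama4 and Lama5 was not tested.

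The laminin β chains exchanged their order. Lamb2, the β2 chain of the synaptic and adult fibre basement membrane, measured 32.9, 35.9 and 36.2 RPKM in uninjured muscle, where it was second to Itgb1 among the 37 chains, and 21.9, 22.9 and 18.5 RPKM at day 3, where it was at rank 11. All day 3 libraries lay below all uninjured ones. Its log2 difference was -0.73 ± 0.095 (SE, 95% interval -0.96 to -0.50, limma adjusted p = 1.77e-04), which is less than the minimum for a call but lies at percentile 10.1 of all tested genes. Under the 4 other scalings it was called lower, with a log2 fold change from -1.16 (spike-ins) to -2.87 (ribosomal protein genes). Lamb1, the widely made β1 chain, measured 4.84, 3.88 and 5.0 RPKM in uninjured muscle and 29.7, 27.2 and 32.8 RPKM at day 3, a log2 fold change of 2.69 ± 0.12 (SE, limma adjusted p = 4.65e-07). Lamb2 thus held 86.7%, 89.9% and 87.3% of the summed laminin β RPKM in the uninjured libraries and 41.8%, 45.1% and 35.4% in the day 3 libraries. Lamb1 held 11.5% ± 1.59 and 57.7% ± 4.89 (SD, n = 3, exact permutation p = 0.1 for both chains). The ratio of Lamb1 to Lamb2 was 0.131 ± 0.0204 in uninjured muscle and 1.44 ± 0.306 at day 3, above 1 in each of the 3 day 3 libraries (1.35, 1.18 and 1.78). Without day 3 replicate 3, the lowest in Lamb2, the Lamb2 share differed by -44.5 percentage points in place of -47.2. Lamb3, a chain of epithelial laminin, measured 0.218, 0.139 and 0.255 RPKM and then 0.887, 0.736 and 0.805 RPKM. Its log2 fold change of 1.60 ± 0.19 (SE, limma adjusted p = 1.0e-04) was -0.58 with quantile normalisation and -0.10 with ribosomal scaling, and its call was lost with a pseudocount of 1.

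The laminin γ level was mostly that of Lamc1, which was called higher as deposited but turned negative (-0.65) with ribosomal scaling. Lamc1, the γ1 chain found in most laminins, measured 13.2, 11.3 and 12.5 RPKM in uninjured muscle and 35.1, 33.2 and 36.3 RPKM at day 3. Its log2 fold change of 1.49 ± 0.077 (SE, limma adjusted p = 9.68e-07) lay 0.14 above the median of all genes, and it held 97.6% ± 0.387 and 96.1% ± 0.306 of the γ RPKM. Lamc3, a γ3 chain, had 0.0470 to 0.112 RPKM uninjured and 0.195 to 0.261 at day 3. Across the families, the summed laminin β level was 3.0 ± 0.172 times the summed α level in uninjured muscle and 1.33 ± 0.0525 times at day 3 (SD, n = 3, exact permutation p = 0.1). The summed γ level was 0.954 ± 0.0688 and 0.927 ± 0.0214 times the summed α level (exact permutation p = 0.6), a difference within the spread of the uninjured libraries.

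**Figure D3:**
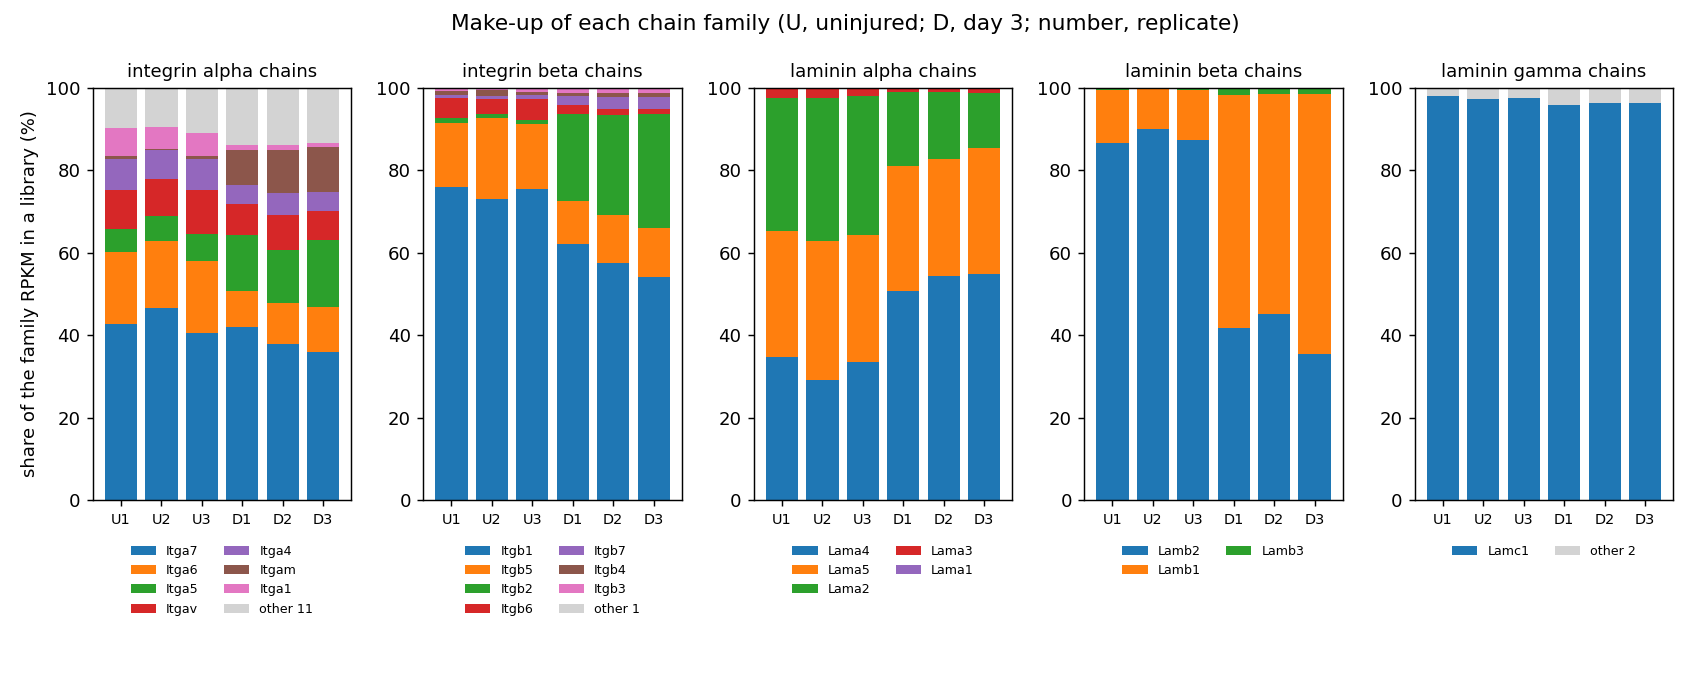
Share of the chains in the summed RPKM of their family, in percent, for each of the 6 libraries. Each gene enters by the transcript used, and smaller integrin and γ chains are pooled as other. Lamb2 holds 86.7 to 89.9% of the laminin β level in the uninjured bars and 35.4 to 45.1% in the day 3 bars, and Itgb2 0.799 to 1.22% and 21.0 to 27.6% of the integrin β level.

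Split by the cells known for each chain, the classes differed in size of change. Without a filter on low values, the 8 leukocyte chains had a median log2 fold change of 4.10 (0.53 over all 26431 genes), 7 of them being called higher and Itgae not. The 6 that passed the filter had a median of 5.06, but Itgal, Itgam, Itgax and Itgb7 passed it through their day 3 values alone. The 6 broadly made chains (Itga6, Itga9, Itgav, Itgb1, Lamb1 and Lamc1) had a median of 2.10, and this became -0.039 with ribosomal scaling. The 7 stromal chains were Itga1, Itga5, Itga8, Itga11, Itgb5, Lama4 and Lama5, of which Lama4 and Lama5 are also chains of vessel laminins. They had a median of 1.69, from 0.36 (Itga1) to 3.85 (Itga5), and of -0.45 with ribosomal scaling. The 3 muscle chains did not move as one: Itga7 was at 2.48, Lama2 at 0.46 and Lamb2 at -0.73. Their median, which is the value of Lama2, minus that of all genes was -0.89 as deposited and -0.90 with quantile normalisation. It was -0.90 with spike-ins, -0.92 with median-of-ratios scaling and -0.93 with ribosomal scaling. These 3 use 1 factor per library, which moves both medians nearly alike, so their likeness shows no stability. As deposited, Itga7 minus the median of all genes was 1.13 and Lamb2 -2.08.

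**Figure D4:**
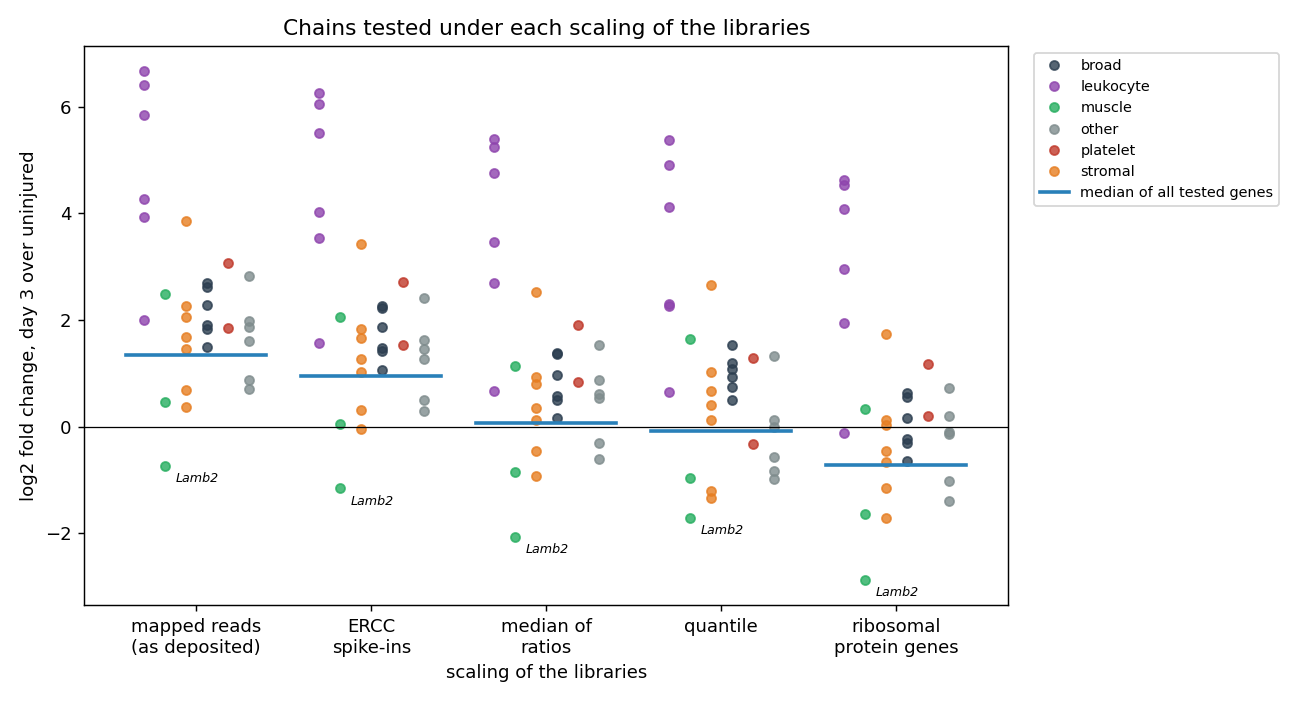
Log2 fold change of the 30 tested chains under 5 scalings of the libraries, with points coloured by cell class and a bar at the median of all tested genes for each scaling (1.35, 0.94, 0.064, -0.074 and -0.72). All chains sit lower under each other scaling than as deposited, 5 of the 6 leukocyte chains stay at 1.95 or above throughout, and Lamb2 is the lowest chain in each column.

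Genes that act with these chains were read from 3 lists. Of 23 tested integrin adaptors and kinases, 14 were called higher, 1 lower and 8 neither, a share of rises near the 60.5% of all tested genes, with a median log2 fold change of 2.05, and of -0.10 with ribosomal scaling. The largest rises were those of Fermt3, the kindlin of blood cells (0.457 ± 0.084 to 36.3 ± 6.76 RPKM, SD, n = 3, log2 fold change 6.02), and Apbb1ip, the RIAM adaptor of leukocytes (log2 fold change 5.15). Lims2, a PINCH adaptor, was the only 1 of them called lower, from 16.7 ± 0.951 to 5.51 ± 0.832 RPKM (log2 fold change -1.59). The most abundant by the mean of all 6 libraries was Itgb1bp2, the muscle protein melusin, at 80.6 ± 1.03 RPKM uninjured and 68.4, 46.2 and 27.8 RPKM at day 3, with a log2 difference of -0.86 (limma adjusted p = 0.024). Chosen after their values were seen, the paralogs of these adaptors parted: Tln1 was at 2.05 and Tln2 at -0.62, and Lims1 was at 2.08 against Lims2 at -1.59, all as log2 fold changes, with Tln2 not called.

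Of 14 tested ligands and counter-receptors, 13 were called higher and 1 lower, while 60.5% and 7.96% of all tested genes were. Their median log2 fold change was 4.12 as deposited (1.35 for all genes) and 1.99 with ribosomal scaling (-0.72 for all genes). With spike-ins 12 were called higher, with median-of-ratios scaling and quantile normalisation 11 each, and with ribosomal scaling 10. The shares of all tested genes were then 48.1%, 26.3%, 24.0% and 16.01%. The number called lower was 1, 1, 1 and 2. Spp1, osteopontin, a ligand of αv, α4 and α9 integrins, was the most abundant by the mean of all 6 libraries and had the largest log2 fold change, from 0.716, 0.842 and 2.87 RPKM to 182, 223 and 289 RPKM (log2 fold change 7.43 ± 0.48, SE). Thbs1, thrombospondin, followed with a log2 fold change of 5.74. Vtn, vitronectin, a ligand of αvβ5, fell from 10.3 ± 1.01 to 4.28 ± 0.489 RPKM (log2 fold change -1.24). Of 11 laminin partners of the basement membrane, 9 were called higher, 0 lower (also 0 by voom and at an unadjusted p under 0.05) and 2 neither, beside 60.5% of all tested genes called higher. Their median log2 fold change was 1.49 against 1.35 for all genes, and -0.62 with ribosomal scaling. With spike-ins 6 were called higher, with median-of-ratios scaling and quantile normalisation 2 each, and with ribosomal scaling 1, where 3 were called lower. The shares of all tested genes called higher were then 48.1%, 26.3%, 24.0% and 16.01%, and 41.5% were called lower with ribosomal scaling. Col18a1 (log2 fold change 3.86) and Nid2, a nidogen that links laminin to collagen IV (2.74), rose most. Dag1, the dystroglycan that binds laminin α2, was the most abundant, at 43.4 ± 6.35 RPKM uninjured and 92.6 ± 12.5 RPKM at day 3, a log2 fold change of 1.09 that lies below the shift of all genes.

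Several RefSeq transcripts were listed for 7 of the chains, and the reads of each gene were divided among them, with 1.69 times as many day 3 reads on the fullest as on the emptiest for Itga9 and at most 1.10 times for the other 6. Itgal had 4 transcripts with 1220 to 1337 day 3 reads each, and Itgam 2 with 13871 and 14067. Summed over its transcripts, Itgal reached 9.18 ± 1.33 RPKM at day 3 in place of 2.42 ± 0.402, and Itgam 56.2 ± 10.8 RPKM in place of 28.3 ± 5.08 (SD, n = 3). Levels of Itga9, Itgae, Itgal, Itgam, Itgb4, Itgb5 and Itgb6 are therefore uncertain against those of other chains, whereas the number of chains called higher was 24 with either reading.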

How the data were processed

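Total RNA (1 μg) from each TA muscle was read as 50 nt single reads. The authors aligned the reads with BWA to RefSeq mouse transcripts, their notes also name CASAVA 1.4 and SAMtools 0.1.19, and they deposited RPKM values per transcript and library, not pooled. For a read that fits more than 1 transcript, the rule of assignment is not given in the sources used here. Every value above 0.01 came to whole reads, within 0.01 read, from transcript length and library total (100%), and 0.01 was read as the floor. The table holds 34302 sequences; 96 name no gene (92 are ERCC spike-ins, 1.06 to 1.64% of reads) and stayed out of tests. All per-sample columns were used.

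R 4.3.3 with limma 3.58.1 (linear model, trended empirical Bayes) gave fold changes, with p-values adjusted over the 14446 genes of mean RPKM 0.5 or more, and exact two-sided permutation tests in SciPy 1.17.1 gave p for shares and ratios (Python 3.11.15, pandas 2.3.3, NumPy 2.4.6, matplotlib 3.10.9). The limma step was tested on simulated data. The chains, their classes and the lists were chosen with earlier results of these data known. Chains past the filter are given in all libraries, except 1 that is not reported here by itself, and of each pathway list the 2 largest calls in each direction and the most abundant gene are named. Same-numbered libraries did not deviate together (correlations -0.059, 0.092 and 0.018), so the numbers were not taken as pairs. The labels give no batch. Promoters are from RefSeq (GRCm38.p6), where all 37 symbols matched a gene. Alternatives varied the pseudocount, filter, scaling, transcript rule, limma options, block and libraries.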

Additional observations from a re-analysis of the deposited data

How the results depend on the processing

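The number of chains called higher (24) and lower (0) was within 1.5 times of these values under pseudocounts of 0.01 (24) and 1 (21), no filter (27 of 37), a mean RPKM of at least 2 (18 of 22), summed transcripts, limma without trend and voom on recovered reads (24 each). With the replicate number as a block, 24 were called higher and 0 lower; the numbers do not pair the libraries, since only replicate 2 correlated best with its own number. Leaving out 1 library at a time gave 24 to 25 higher and 0 to 0 lower. Scaling mattered most: the counts were 11 and 1 where libraries were set to median-of-ratios factors, 13 and 3 for quantile normalisation, 7 and 6 for ribosomal protein genes, and 24 and 1 for spike-ins. The shares of all tested genes called higher and lower were 26.3% and 22.5%, 24.0% and 24.7%, 16.01% and 41.5%, and 48.1% and 11.1%, and each of these lowers the day 3 libraries against the uninjured ones. Log2 fold changes that turned negative were, with median-of-ratios scaling, Itga1 (-0.94), Itga10 (-0.31), Itga8 (-0.47), Itgb6 (-0.60) and Lama2 (-0.86). With quantile normalisation they were Itga1 (-1.21), Itga10 (-0.99), Itga8 (-1.34), Itga2b (-0.32), Itgb6 (-0.83), Lama2 (-0.97) and Lamb3 (-0.58). With ribosomal protein genes they were Itga1 (-1.72), Itga10 (-1.03), Itga6 (-0.30), Itga8 (-1.15), Itga4 (-0.13), Itgb1 (-0.24), Itgb4 (-0.13), Itgb5 (-0.45), Itgb6 (-1.39), Lama2 (-1.65), Lama5 (-0.67), Lamb3 (-0.10) and Lamc1 (-0.65), and with spike-ins Itga1 (-0.051). The differences in share are the same under any factor per library, and were not computed under quantile normalisation. That of Itga7 was -4.70 percentage points (-6.40 to -3.04 without 1 library) and -8.44 with summed transcripts, where genes with several transcripts weigh more. That of Itgb2 was 23.3 (21.6 to 24.9) and 17.7 on reads not divided by length. Those of Lama2 (-17.7; -18.7 to -16.6) and Lamb2 (-47.2; -49.3 to -44.5) moved by less than the spread between libraries. Depth limits Itgal, Itgad, Itgae, Itgb8 and Lama1, with 42 reads or fewer on the transcript used over the uninjured libraries. Itgal and Itgae have further reads on their other transcripts.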
